A study of Mus musculus with 2 samples.

Results

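The 42 genes described here are the 39 Hox genes of the mouse and the limb identity factors Pitx1, Tbx4 and Tbx5, out of 44787 genes with values (22669 of them mRNA genes). They were taken from the mRNA rows of the expression table by symbol, as Hox with a cluster letter and a number, plus the 3 factors. This rule uses no measured value, though earlier results of these data were known. RNA sequencing of hindlimb muscle compared 1 library with the genotype SRSF2 flox/flox (the control library) with 1 library with the genotype SRSF2 flox/flox MyoD-Cre (the knockout library). Both genotypes therefore carried the floxed alleles of Srsf2, which encodes a splicing factor of the serine- and arginine-rich family, and MyoD-Cre, which drives the Cre recombinase in the myogenic lineage, was present in the knockout alone. The labels call the tissue muscle and its source the hindlimb, and they give no age, sex or number of animals behind each library. Cells of the hindlimb outside the myogenic lineage are not targets of this Cre line, and effects of the Cre allele and of the deletion cannot be told apart. With 1 library of each genotype, the differences have no replicate check and carry no p-values, and the intervals given are 95% intervals of counting error alone. Pairs of values are given with the control library first and the knockout library second.

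Hox genes encode homeodomain transcription factors that give cells their position along the body axis and along the limb. They lie in 4 clusters, and genes at the same place in different clusters form paralog groups, with low numbers at the anterior end and high numbers at the posterior end of the expression domains. Pitx1 and Tbx4 are transcription factors of the hindlimb, while Tbx5 is their forelimb counterpart. In limbs, Hox genes and Tbx4 are known to be expressed in the connective tissue and skeletal mesenchyme that surround muscle as well as in other limb cells.

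Both hindlimb factors were measured in each library, at higher levels per length than the forelimb factor. Pitx1 (chromosome 13, 55825054 to 55831425, minus strand) was at 5.16 and 5.46 FPKM, where FPKM is a read count scaled to gene length and library size. Tbx4 (chromosome 11, 85896765 to 85916097, plus strand) was at 2.52 and 2.58 FPKM. Tbx5 was at 0.408 and 0.352 FPKM, below 1 FPKM in both libraries. The ratio of knockout to control was 1.06 for Pitx1 (0.910 to 1.23) and 1.02 for Tbx4 (0.857 to 1.22), and for Tbx5 it was 0.862 (0.544 to 1.36) from 43 and 39 reads. All 3 intervals included 1, and Pitx1 and Tbx4 lay above Tbx5 in both libraries. After median-of-ratios scaling, described below, the ratios were 0.907, 0.878 and 0.740, and each interval again included 1. Pooled over the 3 genes, the ratio was 1.03 (0.923 to 1.15) as deposited and 0.884 (0.792 to 0.987) after that scaling.

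Promoter sequences were found in RefSeq for 22 of the 39 Hox genes and for Tbx4 (build GRCm38.p6), each running from 250 bases before to 50 bases after the annotated start. The 3 sequences given are those of Hoxa9, the most highly expressed member with an entry, of Hoxa13, a posterior gene of the same cluster that was low in both libraries, and of Tbx4, the hindlimb factor. In each of them the RefSeq start was the same base as the deposited start of the gene. Capitals mark CG dinucleotides, read 5′ to 3′ on the strand of the gene. The windows are chr6:52227321-52227620 (minus strand), chr6:52260831-52261130 (minus strand) and chr11:85896515-85896814 (plus strand).
Hoxa9: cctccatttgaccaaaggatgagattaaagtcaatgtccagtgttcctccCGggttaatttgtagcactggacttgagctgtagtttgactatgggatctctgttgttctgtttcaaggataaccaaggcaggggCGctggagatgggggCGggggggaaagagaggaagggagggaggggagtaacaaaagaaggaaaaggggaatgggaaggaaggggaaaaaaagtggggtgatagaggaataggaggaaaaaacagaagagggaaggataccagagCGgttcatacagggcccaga
Hoxa13: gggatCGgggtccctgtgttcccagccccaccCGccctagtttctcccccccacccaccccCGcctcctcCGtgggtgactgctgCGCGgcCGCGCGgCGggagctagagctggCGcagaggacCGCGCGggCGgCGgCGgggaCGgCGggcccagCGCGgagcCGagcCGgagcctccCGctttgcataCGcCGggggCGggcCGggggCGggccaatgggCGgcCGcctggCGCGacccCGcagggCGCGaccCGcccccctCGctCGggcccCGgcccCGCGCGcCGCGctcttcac
Tbx4: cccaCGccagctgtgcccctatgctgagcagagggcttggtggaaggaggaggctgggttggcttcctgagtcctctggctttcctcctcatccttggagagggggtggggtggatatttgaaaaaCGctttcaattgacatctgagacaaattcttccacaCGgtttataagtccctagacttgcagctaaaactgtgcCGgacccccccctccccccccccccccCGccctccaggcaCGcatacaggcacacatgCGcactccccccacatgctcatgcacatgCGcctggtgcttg

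The Hoxa9 window held 4 CG dinucleotides at a GC content of 49.7%, and the Hoxa13 window held 45 at 81.0%. Of this pair Hoxa9 had the higher level, at 8.40 and 8.21 FPKM against 0.314 and 0.271 FPKM for Hoxa13. The Tbx4 window held 8 CG dinucleotides at a GC content of 59.0%. Over the 24 Hox promoters listed the median GC content was 57.7% and the median CG count 14.5, against 52.7% and 7 over all 32851 promoters of the same length. The letters CCAAT, on either strand, were in 15 of the 24 Hox promoters and in 37.4% of all promoters, and TATAAA was in 4 of the 24 and in 13.6% of all. The letters TGACAG and TGATTNAT were each in 2 of the 24, against 19.2% and 3.22% of all promoters. These are matches of letters in the windows and were not tested for binding. Across the 22 Hox genes with a promoter, which share their libraries and differ in base composition, the Spearman correlation of CG count and FPKM was -0.34 in the control and -0.36 in the knockout library, a description without a test.

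The libraries held 69422626 and 76702198 reads, and their FPKM values are relative to 26659452 and 28060573 reads. Srsf2 itself was at 31.1 and 19.4 FPKM, a ratio of 0.624 (0.583 to 0.666), and no source used here says which part of the gene was floxed. The knockout library was thus the lower of the pair for the targeted gene, but kept reads from it. Muscle fibre markers, all 17 of them at 1 FPKM or more in both libraries, summed to 34597 and 18595 FPKM. Of 17 keratinocyte markers 3 reached 1 FPKM in the control library and 14 did in the knockout library, and their sums were 10.8 and 2001 FPKM. Fewer cells of a type and less RNA per cell cannot be told apart in such tissue libraries.

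Levels differed widely along each cluster, and the most abundant Hox genes were the same in both libraries. The highest member was Hoxc10 (chromosome 15, 102966796 to 102971898, plus strand), at 13.5 and 13.7 FPKM. Hoxc9, its neighbour, followed at 10.5 and 9.94 FPKM, and Hoxa9 (chromosome 6, 52223097 to 52227370, minus strand) at 8.40 and 8.21 FPKM. These 3 genes held ranks 1 to 3 of the 42 in both libraries. Ranks 4 to 7 went to Hoxd8, Hoxa10, Pitx1 and Hoxa7 in the control library and to Pitx1, Hoxd8, Hoxa10 and Hoxa7 in the knockout library. Hoxd8 was at 5.95 and 5.11 FPKM and Hoxa10 at 5.29 and 4.64 FPKM. Across the 42 genes the levels of the 2 libraries had a Pearson correlation of 0.990 on the log2(FPKM + 1) scale, a description that rests largely on the differences in level between genes.

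**Figure D1:**
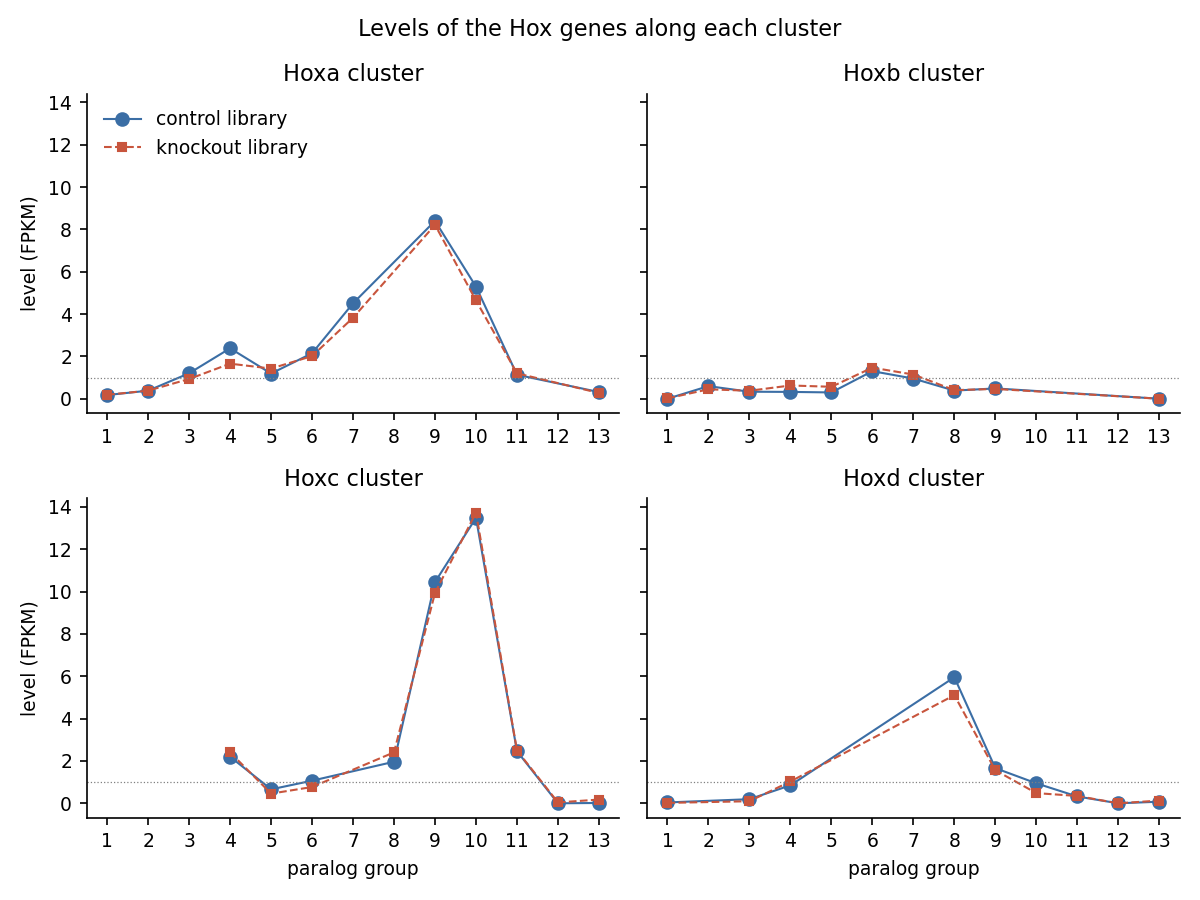
Level in FPKM (y axis) of each Hox gene against its paralog group (x axis), in 1 panel per cluster, with circles for the control library and squares for the knockout library and a dotted line at 1 FPKM. The peak lies at Hoxc10 (13.5 and 13.7 FPKM) in the C cluster, at Hoxa9 (8.40 and 8.21 FPKM) in the A cluster and at Hoxd8 (5.95 and 5.11 FPKM) in the D cluster, and the highest B cluster gene is Hoxb6 (1.30 and 1.47 FPKM).

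A member counted as measured if either library reached 1 FPKM, and 21 of 42 did: 8 of 11 genes of the A cluster, 2 of 10 of the B cluster, 6 of 9 of the C cluster, 3 of 9 of the D cluster, Pitx1 and Tbx4. Of these, 2 (Hoxb7 and Hoxd4) reached it in the knockout library alone and 2 (Hoxa3 and Hoxc6) in the control library alone. The C cluster made up 43.6% and 45.4% of the summed Hox FPKM. The A cluster made up 36.6% and 34.6%, the D cluster 13.5% and 12.3%, and the B cluster 6.29% and 7.70%. By position, paralog groups 9 to 13 made up 60.8% and 61.2% of the sum, groups 5 to 8 made up 27.5% and 27.4%, and groups 1 to 4 made up 11.7% and 11.4%. Groups 9 and 10 alone contributed 28.3% and 26.6% in the control library and 28.2% and 26.4% in the knockout library. The share of the A cluster differed by -1.95 percentage points between the knockout and the control library and that of the C cluster by 1.81, while those of the 3 position classes differed by -0.26, -0.14 and 0.39, from anterior to posterior.

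**Figure D2:**
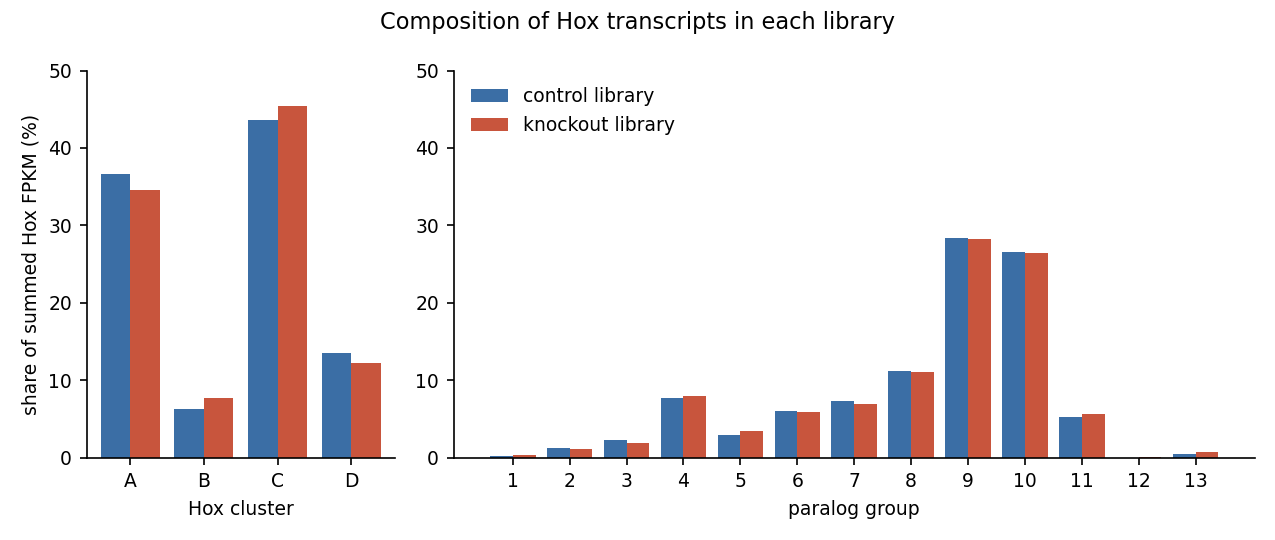
Share of the summed FPKM of the 39 Hox genes (y axis, percent) held by each cluster (left panel) and each paralog group (right panel), with 1 bar per library. Paralog groups 9 and 10 hold the most in both libraries, at 28.3% and 26.6% in the control and 28.2% and 26.4% in the knockout library.

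The comparison of the libraries asked how these genes differed when Srsf2 was deleted in the myogenic lineage. No measured member was past the rule of size in either direction, which asks for 1 or more in log2((knockout FPKM + 1)/(control FPKM + 1)), called the difference here. Over all 13175 measured genes, 2.68% were higher and 0.744% lower by this rule, 3.42% in all, so a count of 0 among 21 is near the background and is not a result about these genes. Their differences ran from -0.35 for Hoxa4 to 0.20 for Hoxc8, with a median of 0.01 and quartiles of -0.16 and 0.09. The median over all measured genes was 0.18, with quartiles of -0.02 and 0.37. Of the 21 members, 20 lay below the median gene, against 50% of all measured genes, and the exception was Hoxc8. This count depends on the pseudocount of 1 FPKM. By the ratio without it, Hoxa5 (1.20), Hoxb7 (1.20), Hoxd4 (1.21) and Hoxc8 (1.23) lay above the median ratio of all measured genes, 1.16. The members were 11 above 0 and 10 below 0, while 27.0% of all measured genes were below 0. Their signs depend on the scaling of the libraries. After median-of-ratios scaling, which divides the ratio of knockout to control by 1.17, the median gene lay at -0.003 and the median member at -0.19.

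**Figure D3:**
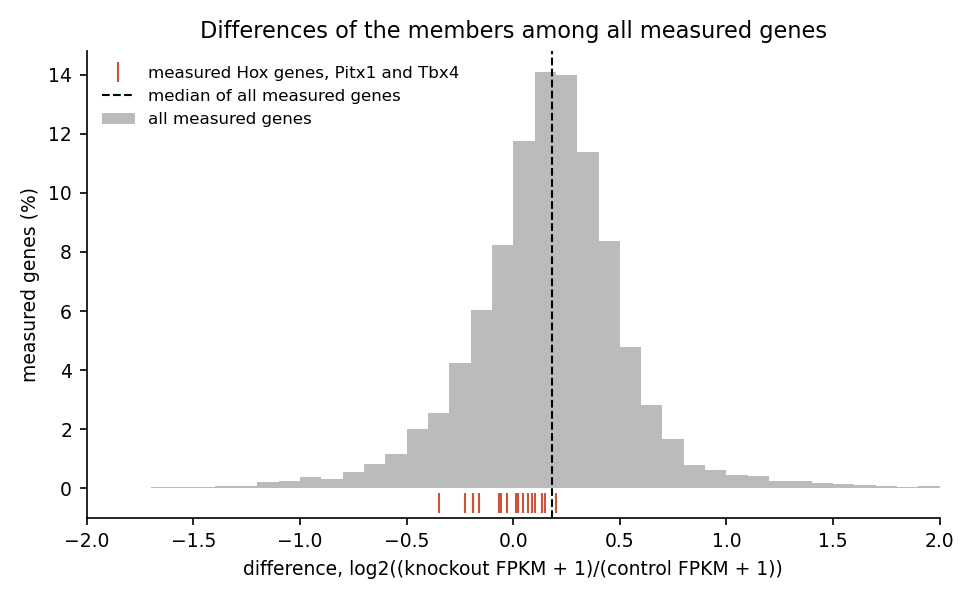
Distribution of the difference log2((knockout FPKM + 1)/(control FPKM + 1)) (x axis) over all 13175 measured genes (grey bars, percent on the y axis; values beyond -2 and 2 are not shown), with a tick under the axis for each of the 21 measured members. The ticks lie between -0.35 and 0.20, and all but 1 are to the left of the dashed line at the median gene, 0.18.

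Counting intervals were taken on the ratio without the pseudocount. Of the 21 measured members none had an interval of the ratio wholly above 1, and 3 had one wholly below 1. Over the 12490 measured genes with recovered reads the interval was above 1 in 51.7% and below 1 in 13.4%, and among the 9433 of them under 15 FPKM in both libraries, as all members were, in 46.2% and 11.7%. The share of members below 1 is thus near the background, while the share above 1 is under it. After median-of-ratios scaling none was above 1 and 9 were below 1, namely Hoxa3, Hoxa4, Hoxa7, Hoxa9, Hoxa10, Hoxc6, Hoxc9, Hoxc10 and Hoxd8, where 24.2% and 25.8% of the genes under 15 FPKM were above and below. The 9433 genes vary in depth, and this depth was not matched to that of the members.

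**Figure D4:**
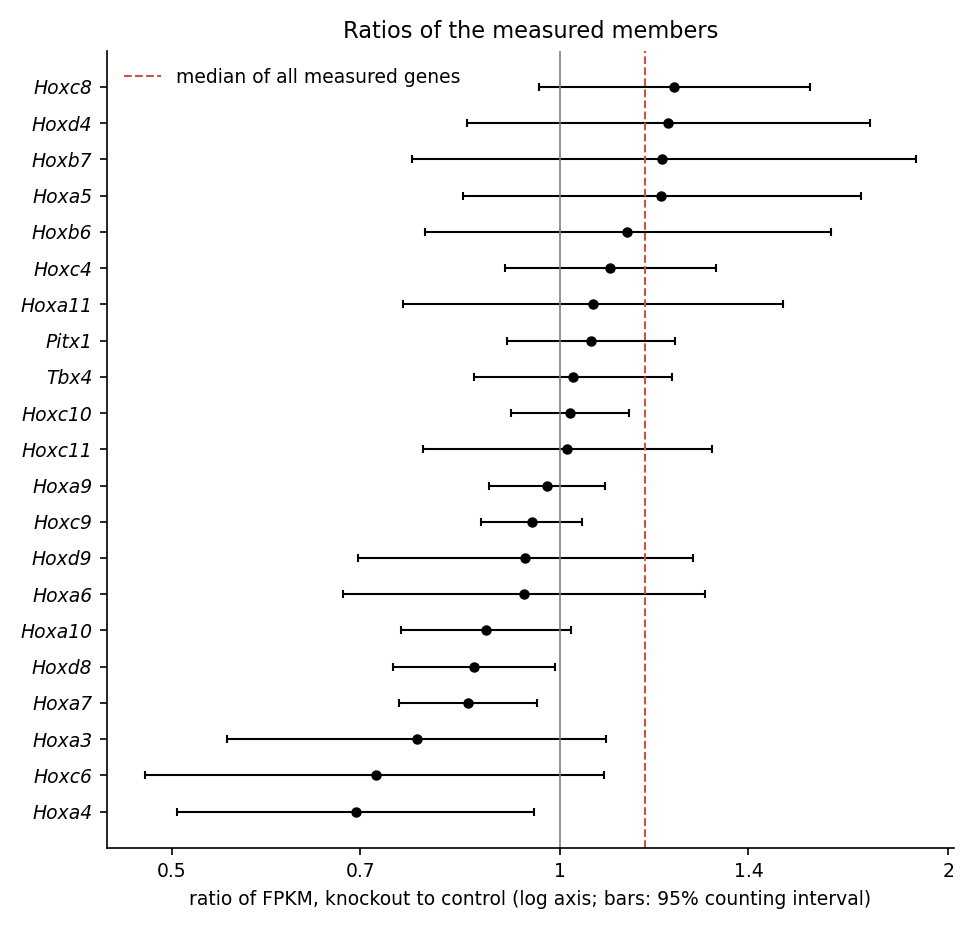
Ratio of knockout to control FPKM (x axis, log scale) for each of the 21 measured members, with bars for the 95% counting interval, a grey line at 1 and a dashed line at the median ratio of all measured genes, 1.16. The intervals of Hoxa4, Hoxa7 and Hoxd8 lie below 1, and no interval lies above 1.

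Pooled over its genes, the A cluster was lower in the knockout library than in the control library beyond counting error. This held with the values as deposited and after median-of-ratios scaling, and also for the D cluster, described below, and all 39 Hox genes together. The ratio over all 39 was 0.959 (0.923 to 0.997), and 0.823 (0.792 to 0.855) after that scaling. Pooled sets of other genes were not compared. The genes of the A cluster held 2058.5 and 1975.5 reads. Their ratio was 0.912 (0.857 to 0.970) after correction for library size, and 0.783 (0.735 to 0.833) after that scaling. Hoxa4, an anterior gene of the cluster, was at 2.38 and 1.66 FPKM, a ratio of 0.695 (0.505 to 0.954) from 97 and 71 reads. Hoxa7 was at 4.51 and 3.83 FPKM, a ratio of 0.849 (0.750 to 0.961). It held 549.5 and 491 of the reads of the cluster, and the pooled ratio without it was not taken. Of the 8 measured genes of the cluster, these 2 alone had intervals below 1 as deposited. Hoxa3 was at 1.20 and 0.932 FPKM (ratio 0.775, 0.552 to 1.09), and Hoxa10 had a ratio of 0.877 (0.753 to 1.02). Hoxa9 differed by less than its counting error, at 0.978 (0.881 to 1.08), as did Hoxa6, at 2.15 and 2.01 FPKM. Hoxa5 and Hoxa11 had values above those of the control, at 1.19 and 1.42 FPKM and at 1.13 and 1.20 FPKM, with intervals of 0.841 to 1.71 and 0.756 to 1.49. The deposited span of Hoxa3 covers Hoxa4, Hoxa5 and Hoxa6 on the same strand, and Hoxa3, Hoxa5 and Hoxa7 came out with fractions of reads, so part of their reads may have been divided between rows.

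For the C cluster the call depended on the scaling. It held 2209.8 and 2321.4 reads, a ratio of 0.998 (0.941 to 1.06) with the values as deposited, which included 1, and of 0.857 (0.808 to 0.908) after median-of-ratios scaling, which did not. Hoxc10, at 13.5 and 13.7 FPKM, had a ratio of 1.02 (0.917 to 1.13), and Hoxc9, at 10.5 and 9.94 FPKM, a ratio of 0.951 (0.869 to 1.04). Genes of paralog group 10 are known to pattern the lumbar spine and the femur. Hoxc11 was at 2.46 and 2.49 FPKM. Hoxc8 was at 1.96 and 2.41 FPKM, a ratio of 1.23 (0.964 to 1.56), the highest of the measured members. Hoxc4 was at 2.20 and 2.41 FPKM (0.906 to 1.32), and Hoxc6 at 1.07 and 0.770 FPKM (0.477 to 1.08), with fractions of reads again in Hoxc6 and Hoxc10.

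In the D cluster the ratio of pooled reads was 0.885 (0.792 to 0.990), from 653.3 and 608.8 reads, and 0.760 (0.679 to 0.850) after median-of-ratios scaling. Hoxd8, at 5.95 and 5.11 FPKM, held 401 and 362 of these reads and had a ratio of 0.858 (0.742 to 0.991). Hoxd10, under 1 FPKM in both libraries, held 45.3 and 24.3 of them and had a ratio of 0.510 (0.298 to 0.852). The pooled ratio without either gene was not taken. Hoxd9 was at 1.66 and 1.56 FPKM (0.697 to 1.27) and Hoxd4 at 0.850 and 1.03 FPKM (0.848 to 1.74). The B cluster, with 270 and 334 reads in all, had a ratio of 1.18 (0.998 to 1.38), and of 1.01 (0.857 to 1.19) after that scaling. Hoxb4, with 22 and 45 of these reads, and Hoxb5, with 15 and 30, were both under 1 FPKM. Its measured genes were Hoxb6, at 1.30 and 1.47 FPKM, and Hoxb7, at 0.952 and 1.14 FPKM.

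By paralog group the medians of the measured members were close to each other. Groups 1 to 4 had a median difference of -0.05 over 4 genes, groups 5 to 8 of 0.02 over 8 genes, and groups 9 to 13 of -0.03 over 7 genes. Among the measured members the spread was narrowest at the posterior end, where differences ran from -0.16 to 0.05. In groups 1 to 4 they ran from -0.35 to 0.13. This order depends on the filter, since Hoxd10 of group 10, under 1 FPKM in both libraries, lay at -0.39. Depth was not matched. Reads of the measured genes in the control library ran from 69 to 958 at the posterior end and from 58 to 212 in groups 1 to 4. In group 4 Hoxa4 lay at -0.35, Hoxc4 at 0.09 and Hoxd4 at 0.13, and in group 8 Hoxd8 lay at -0.19 and Hoxc8 at 0.20. In group 9, Hoxa9, Hoxc9 and Hoxd9 lay at -0.03, -0.07 and -0.06. The counting intervals of the named genes of each group overlapped, and differences between paralogs were not tested.

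The other 21 members were under 1 FPKM in both libraries. They included Hoxa2 and Hoxa13 of the A cluster, Hoxb1, Hoxb2, Hoxb3, Hoxb4, Hoxb5, Hoxb8, Hoxb9 and Hoxb13 of the B cluster, Hoxc5, Hoxc12 and Hoxc13 of the C cluster, Hoxd1, Hoxd3, Hoxd10, Hoxd11, Hoxd12 and Hoxd13 of the D cluster, and Tbx5. Hoxb13 and Hoxd12 were listed at 0 in both libraries. Hoxb1 and Hoxc12 were listed at 0 in the control library and rested on 1 and 1.33 reads in the knockout library. All measured members of paralog groups 9 to 13 belonged to groups 9, 10 and 11, and no member of groups 1, 2, 12 or 13 was measured.

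Among these low genes 3 had an interval that excluded 1, and they are named for that after their values were seen. Over the 12550 genes under 1 FPKM with recovered reads, 8.01% were above 1 and 2.62% below 1 by their intervals. Hoxb4 was at 0.322 and 0.625 FPKM, from 22 and 45 reads, a ratio of 1.94 (1.14 to 3.40), and after median-of-ratios scaling its interval of 0.981 to 2.92 included 1. Hoxb5, its neighbour, was at 0.297 and 0.564 FPKM from 15 and 30 reads, with an interval of 0.991 to 3.80. Hoxc5, also named after its values were seen, was at 0.660 and 0.457 FPKM from 48 and 35 reads. Its interval was 0.435 to 1.09 as deposited and 0.373 to 0.939 after that scaling. Hoxd10 was at 0.944 and 0.481 FPKM, a ratio of 0.510 (0.298 to 0.852), which after that scaling was 0.438 (0.256 to 0.732), and its deposited span overlaps that of Hoxd11, at 0.322 and 0.347 FPKM.

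Hoxc13, which is known to drive keratin genes of hair and nail, had the highest ratio of the members with reads in both libraries. It was at 0.0154 and 0.176 FPKM, from 1 and 12 reads, a ratio of 11.4 with an interval of 1.69 to 487. The value rests on those few reads, and its level stayed far under 1 FPKM. Of 19 hair follicle markers 18 were found, and all 18 had the higher value in the knockout library, 10 of them being listed at 0 in the control library. The knockout library brought 7 of them to 1 FPKM, 5 of which were under it in the control library, so no count past the rule of size is given for this list. Their summed levels were 5.07 and 37.7 FPKM. Krt25, a keratin of the inner root sheath, was at 0.0227 and 6.45 FPKM and Tchh, trichohyalin, at 2.07 and 16.5 FPKM, while Trps1 and Lef1 were at 2.07 and 2.86 FPKM and at 0.677 and 1.46 FPKM. All 17 keratinocyte markers likewise had the higher value in the knockout library, and 11 of the 14 measured reached 1 FPKM there alone. Krt1 and Krt10 were at 2.48 and 669 FPKM and at 3.89 and 906 FPKM, Esrp1 was at 0.00947 and 2.33 FPKM and Trp63 at 1.95 and 4.12 FPKM. Both lists were chosen with earlier results of these data known, and the part of these skin cells in the Hoxc13 value was not tested.

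Transcripts without a coding sequence lay between and across the Hox genes, and 6 of the 15 non-mRNA rows within the cluster spans were measured. Hotair, an RNA antisense to the C cluster (chromosome 15, 102944062 to 102947946, minus strand), was at 1.20 and 0.722 FPKM, a ratio of 0.602 (0.405 to 0.887) from 71 and 45 reads. It overlaps no Hox row and lies between Hoxc12 and Hoxc11. Hoxc12 was listed at 0 in the control library with 1.33 reads in the knockout library, and Hoxc11 was at 2.46 and 2.49 FPKM. Hoxa11os, which overlaps Hoxa11 on the other strand, was at 1.24 and 1.05 FPKM (0.572 to 1.23). Whether the counting used strand is not given, so its reads cannot be told apart from those of Hoxa11. Gm11539, between Hoxb13 and Hoxb9, was at 1.82 and 2.34 FPKM (0.787 to 2.12). Among the rows under 1 FPKM, Gm53 of the B cluster (chromosome 11, 96251660 to 96264484, plus strand), named after its values were seen, was at 0.304 and 0.809 FPKM from 25 and 70 reads, a ratio of 2.66 (1.66 to 4.38). Hotair and Gm53, with values in opposite directions, were the rows of these 15 whose intervals excluded 1, as deposited and after median-of-ratios scaling. As deposited, the interval was below 1 in 13.4% of all measured genes and above 1 in 8.01% of genes under 1 FPKM. Of the 15 rows 2 were at 0 in both libraries, and others held few reads.

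The clusters also hold the miR-10 and miR-196 genes. The miR-196 family is known in the mouse to target Hoxb8, and miR-10 genes lie beside the genes of paralog group 4. Mature sequences from RefSeq (build GRCm38.p6) are given with the seed, bases 2 to 8, in capitals. Those of the 5p arms come first, because miR-10a and miR-10b share a seed and so do miR-196a and miR-196b, and then those of the 3p arms, whose seeds differ.
miR-10a-5p: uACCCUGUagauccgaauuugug
miR-10b-5p: uACCCUGUagaaccgaauuugug
miR-196a-5p: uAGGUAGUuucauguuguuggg
miR-196b-5p: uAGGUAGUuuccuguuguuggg
miR-10a-3p: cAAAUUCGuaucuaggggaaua
miR-10b-3p: cAGAUUCGauucuaggggaaua
miR-196a-1-3p: cAACGACAucaaaccaccugau
miR-196a-2-3p: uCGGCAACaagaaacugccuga
The deposited rows of these genes span a single arm each, with the same first and last base as the RefSeq arm: the 3p arm for Mir10a, Mir10b, Mir196a-1 and Mir196a-2, and the 5p arm for Mir196b. They held few reads. The Mir10b row (chr2:74726114-74726135, plus strand), within the span of Hoxd4, had 6 and 5 reads, and that of Mir196a-1 (chr11:96265225-96265246, plus strand) was listed at 0 in the control library and had 5 reads in the knockout library. The rows of Mir196a-2 and Mir196b had 2 and 3 reads and 2 and 1 reads, and Mir10a was listed at 0 in both libraries. Whether these reads came from miRNAs or from longer transcripts was not tested. Hoxb8 was at 0.383 and 0.404 FPKM, a ratio of 1.06 (0.607 to 1.85).

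Genes next to the clusters were compared as positional neighbours. Of the 24 mRNA rows nearest to the clusters, 3 on either side of each, 19 were measured and none was past the rule of size. Their median difference was 0.08, with 8 above and 11 below the median gene. Around the A cluster, Snx10 was at 3.36 and 5.34 FPKM, a ratio of 1.59 (1.45 to 1.75), Skap2 at 9.09 and 9.65 FPKM, Cbx3 at 54.3 and 68.8 FPKM, Tax1bp1 at 47.6 and 66.2 FPKM and Hibadh at 14.1 and 12.2 FPKM. The homeobox genes Evx1 and Evx2, which flank the posterior ends of the A and D clusters, were listed at 0 in both libraries and at 0.0382 and 0.0121 FPKM. Around the B cluster, Atp5g1, Snx11 and Cbx1 had ratios of 1.01, 0.884 and 1.06, Skap1 was listed at 0 in the control library with 2 reads in the knockout library, and Ttll6 and Calcoco2 were listed at 0. Around the C cluster, Calcoco1, Atp5g2, Atf7, Smug1, Cbx5 and Hnrnpa1 had ratios of 1.15, 1.09, 1.07, 0.898, 1.15 and 1.28. Around the D cluster, Lnp, Atp5g3, Mtx2, Hnrnpa3 and Nfe2l2 had ratios of 1.03, 0.911, 1.23, 1.21 and 0.915.

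Hox proteins bind DNA with partners of the TALE homeodomain class, the Pbx, Meis and Pknox proteins. Of 9 such cofactor genes 8 were measured and none was past the rule, with a median difference of 0.10 and 3 above the median gene. Meis3 was at 2.34 and 3.55 FPKM, a ratio of 1.52 (1.21 to 1.91), and Meis2 at 1.36 and 2.04 FPKM, a ratio of 1.51 (1.25 to 1.82). In the other direction Pknox2 was at 3.95 and 2.72 FPKM, a ratio of 0.687 (0.590 to 0.800), and Pbx3, at 6.36 FPKM in the control library, had a ratio of 0.943 (0.835 to 1.06). Relatives of the limb factors had 4 of 12 genes measured, with a median of -0.03. Among them Tbx1 was at 2.53 and 2.52 FPKM, Pitx3 at 3.17 and 3.00 FPKM and Mga at 7.58 and 7.10 FPKM.

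Polycomb and Trithorax proteins hold Hox genes in their silent or active state. Of 22 such regulators 19 were measured, none was past the rule, and their median of 0.18 was that of all measured genes, with 10 above and 9 below it. Kdm6a, a demethylase of histone H3 at the Polycomb site, was at 3.57 and 5.83 FPKM, a ratio of 1.63 (1.47 to 1.81), and Rnf2, a ubiquitin ligase of Polycomb complexes, at 14.8 and 20.9 FPKM, a ratio of 1.41 (1.32 to 1.52). Ezh2, the Polycomb methyltransferase, was at 7.21 and 6.12 FPKM, a ratio of 0.849 (0.748 to 0.963), and Kdm6b at 4.47 and 3.97 FPKM.

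Other limb genes spread more widely than the members. Of 27 limb transcription factors 21 were measured, and their median was 0.25 with 13 above the median gene. By the rule 1 was higher and none lower, against 2.68% and 0.744% of all measured genes. Of these 21, 3 reached 1 FPKM in the knockout library alone. The higher gene was Lhx2, a LIM homeodomain factor that is also a hair follicle gene. It was at 0.0262 and 1.11 FPKM from 2 and 89 reads, a ratio of 42.3 (11.4 to 355). Lhx2 passed the filter through the knockout library alone, where it was high, so its count is not a result about this list. Twist1, a factor of limb mesenchyme, was at 6.74 and 13.6 FPKM, a ratio of 2.02 (1.76 to 2.33). Tbx15 lay lowest at 55.7 and 43.5 FPKM, a ratio of 0.781 (0.751 to 0.814), followed by En1 at 1.53 and 1.14 FPKM. Of 16 limb signalling genes 11 were measured, with a median of 0.42 and 9 above the median gene, and 2 of the 11 reached 1 FPKM in the knockout library alone. Fgfr2, a fibroblast growth factor receptor also found in epithelia, was at 5.38 and 11.8 FPKM. It was the 1 higher gene of these 11, where 2.68% of all measured genes were higher. Cyp26b1, which degrades retinoic acid, was at 1.35 and 2.82 FPKM. Aldh1a2, which makes retinoic acid, was at 6.44 and 5.95 FPKM, and Rarb at 1.43 and 1.39 FPKM.

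**Figure D5:**
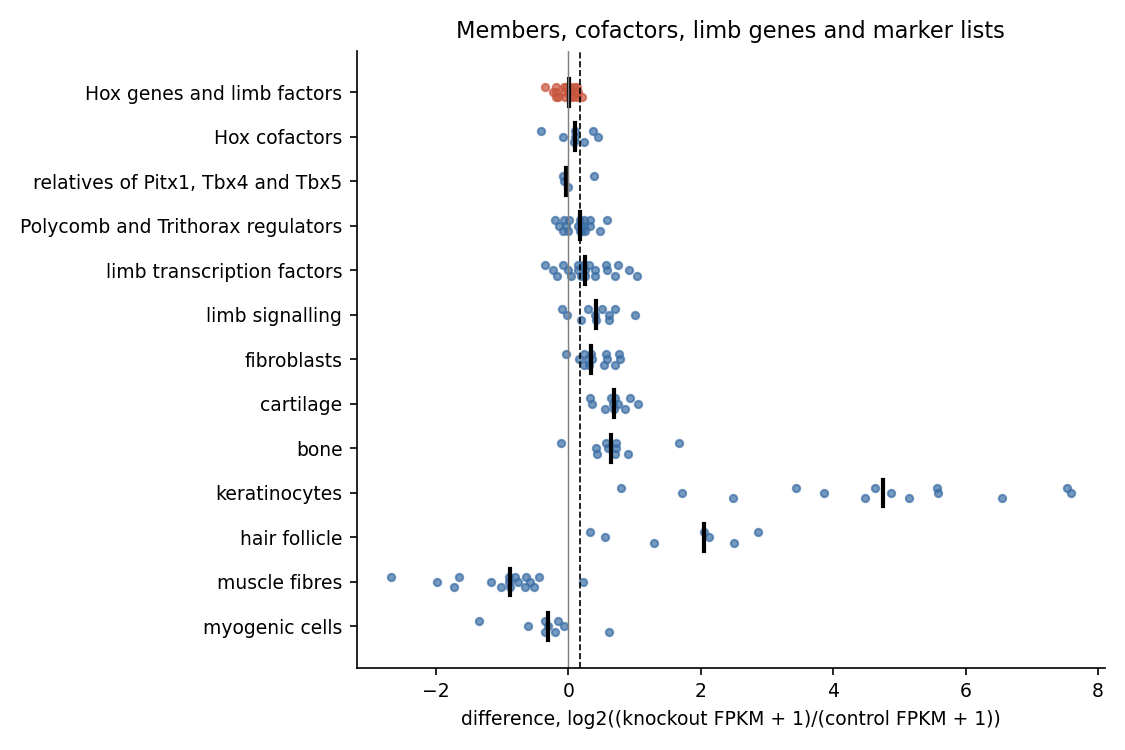
Difference log2((knockout FPKM + 1)/(control FPKM + 1)) (x axis) of each measured gene (points) for the members (top line) and for related gene lists and marker lists, with a thick black mark at each list's median, a grey line at 0 and a dashed line at the median of all measured genes, 0.18. The members lie between -0.35 and 0.20, keratinocyte markers, 11 of 14 of which reached 1 FPKM in the knockout library alone, have a median of 4.75 and muscle fibre markers of -0.89.

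Marker lists of cells that could carry Hox transcripts were set beside these values. Fibroblast markers, all 14 of them measured, had a median difference of 0.35 and summed to 3018 and 4889 FPKM. For cartilage the median was 0.69, with sums of 107.5 and 191 FPKM, and for bone 0.65, with sums of 553 and 1060 FPKM. Tendon markers had a median of 0.24 (264 and 305 FPKM) and adipocyte markers of 1.48 (311 and 718 FPKM). Muscle fibre markers lay at -0.89 and markers of myogenic cells at -0.31 (167 and 139 FPKM). Medians were -0.04 for endothelium, 0.07 for smooth muscle and pericytes, 0.26 for macrophages and 0.02 for Schwann cells. The Hox median of -0.03 over 19 measured genes lay close to the medians of the endothelium and Schwann cell lists. It was above those of the muscle lists and below those of the fibroblast, cartilage and bone lists. The part of each cell type in the Hox values was not tested.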

How the data were processed

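RNA of hindlimb muscle was sequenced in 1 control and 1 knockout mouse sample, grouped by the genotype labels. Bowtie 0.12.2 and mm9 are named, without a role, in the submitters' processing notes, but coordinates are on GRCm38, since 19327 of the 19368 mRNA genes matched to GENCODE M21 lie where it places them. No source used here gives the gene counter or strand setting. FPKM values of every gene, scaled by the authors to length and library size, were used unchanged. The deposited mapping tables hold read totals and the fraction of mapped reads on each chromosome, which was not used.

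Differences used a pseudocount of 1 FPKM, which understates the changes of low genes. Reads were recovered from the FPKM steps as whole numbers (relative tolerance 2e-14), with a gene length nearest to that of a GENCODE transcript, for 94.8% of measured genes. Where the length exceeded every candidate transcript by over 1.75 times, fractions of reads (a divisor of up to 6) were allowed, as in 8 members. The reads, the counting intervals and the ratios of pooled reads depend on this choice, while the ratio of a single gene does not. Intervals are exact Clopper-Pearson intervals. The steps were tested on simulated data. Where the marker lists carried no result, their genes are not named, and of the other lists the 2 highest and 2 lowest measured genes are, save for some genes that are not reported here. Members and lists were chosen with earlier results of these data known. Scripts ran in Python 3.11.15 with pandas 2.3.3, numpy 2.4.6, scipy 1.17.1 and, for plots, matplotlib 3.10.9.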

Additional observations from a re-analysis of the deposited data

How the results depend on the processing

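No paired analysis was possible because neither genotype has a second library, and for the same reason none could be left out. The count of 0 members higher and 0 lower was the same under all 7 alternatives chosen for it. The alternatives without a filter and at 5 FPKM or more could not add to it. With the pseudocount of 1, genes under 1 FPKM in both libraries cannot pass the rule, and the stricter filter only removes genes. At 5 FPKM or more 6 members remained, and the B cluster and paralog groups 1 to 4 gave no median there. Scaling by median of ratios, TMM (unweighted) or the sum without the 50 most abundant genes moved the median of the members from 0.01 to -0.19 in each case, that of the A cluster from -0.11 to -0.26, of the B cluster from 0.12 to about 0 (-0.003, -0.0005 and -0.002), of the C cluster to -0.16, of the D cluster to -0.37, of paralog groups 1 to 4 to -0.30, of groups 5 to 8 from 0.02 to -0.12 and of groups 9 to 13 to -0.21. These scalings moved the median of all genes by over 0.1, from 0.18 to about 0 (-0.003, 0.0008 and -0.002), and 7 of the 21 measured members changed sign under each. The counts over all genes (353 higher and 98 lower) were 613 and 204 with a pseudocount of 0.1 FPKM, 169 and 54 at 5 FPKM or more, and 1205 and 383 with a 1.5-fold rule. Lower genes numbered 184, 177 and 184 under the 3 scalings in the order above, where 59.9%, 60.8% and 59.9% of the genes past the rule were higher against 78.3% as deposited. With mRNA genes alone, chosen after the data were seen, 42 were lower and 87.0% higher. The cause was not tested, except that the filters, the pseudocount and the fold change which genes can count. Members with fewer than 50 reads, such as Hoxc13 and Tbx5, have intervals too wide to show small differences.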
